A study of Mus musculus with 19 samples.

Results

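The 10 genes described here, H19, Igf2, Igf2r, Dlk1, Meg3, Peg3, Plagl1, Cdkn1c, Grb10 and Nnat, are imprinted genes of the mouse, chosen by name and read from the series' gene count table of 23458 genes. All 10 were found, and 9 of them (all but Peg3) passed the filter on low counts that left 15508 genes for testing. The study sequenced polyadenylated RNA of C57BL/6 mice in leukemias carrying FLT3-ITD, modelled by a retrovirus or by a knock-in allele. FLT3-ITD is an internal tandem duplication that keeps the receptor tyrosine kinase FLT3 active. The study's 19 samples are 17 libraries in 7 groups, because the technical runs of each WT_GFP library share 1 value.

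In the retroviral model, marrow cells of Mx1-cre+ donors with Dnmt3a+/+ or floxed Dnmt3af/f were transduced with a murine stem cell virus vector carrying GFP alone (MSCV_GFP) or FLT3-ITD with GFP (MSCV_FLT3-ITD-GFP) and transplanted into lethally irradiated recipients. Dnmt3a encodes a de novo DNA methyltransferase, and the Mx1-cre transgene, an interferon-inducible Cre, is carried by all 4 retroviral groups. Donor-derived CD4+CD8+ cells were sorted: thymocytes of WT_GFP (Dnmt3a+/+, n = 2) and KO3a_GFP (Dnmt3af/f, n = 2), and leukemic cells of WT3a_FLT3 (Dnmt3a+/+ with FLT3-ITD, n = 3) and KO3a_FLT3 (Dnmt3af/f with FLT3-ITD, n = 4). The GFP libraries, WT3a_FLT3 replicates 1 and 3 and KO3a_FLT3 replicates 3 and 4 came from thymus, and the other retroviral leukemias from marrow. Donor cells were enriched for Sca-1 in all 4 KO3a_FLT3 libraries and for ckit in both KO3a_GFP libraries. FLT3-ITD and donor enrichment therefore cannot be told apart in KO3a_FLT3 against KO3a_GFP. Of WT3a_FLT3, replicate 1 was enriched for Sca-1, replicate 2 for ckit and replicate 3 came from whole marrow. In the knock-in model, bulk marrow was collected without a sort from mice in which all groups carried the duplication on 1 Flt3 allele (Flt3+/ITD). WT3a_KIFLT3 is pre-leukemic marrow with floxed alleles but no Cre (ER-cre-;Dnmt3af/f, n = 3), HET3a_KIFLT3 is leukemia with 1 floxed allele (ER-cre+;Dnmt3af/+, n = 2) and KO3a_KIFLT3 is leukemia with both (ER-cre+;Dnmt3af/f, n = 1). Pre-leukemic and leukemic marrow of this model therefore differ in both disease stage and Cre. Replicates are not tied to single animals by the labels, so each p-value reflects how these samples vary among themselves, which may be technical.

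An imprinted gene is expressed mainly from the maternal or mainly from the paternal copy, as set by DNA methylation laid down in the germ line at an imprinting control region. In growing tissues of the mouse embryo the paternally expressed members, Igf2 among them, mostly promote growth, and the maternally expressed members, such as H19, Igf2r, Cdkn1c and Grb10, mostly restrain it. In adult blood several of them mark or restrain resting stem cells, and the levels of most fall in differentiated cells. Counts of RNA do not show which parental copy was read, so every value below is the sum of both.

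Total counts ranged from 4933886 to 25331906 per library. Levels are given as CPM, TMM-scaled counts per 1e6 reads, and 3 counts are worth 0.12 CPM in 1 of the deepest libraries and 0.566 CPM in the shallowest, so that low members are the less precise ones. Genes of CD4+CD8+ thymocytes (16 markers) summed to 5320 to 18900 CPM in the retroviral libraries and to 32.8 to 120 CPM in the knock-in libraries. In KO3a_FLT3 against KO3a_GFP, 12 of 15 stromal markers rose, beside 9.8% of all genes. Without Thy1, which T cells also express, 14 stromal genes summed to 7.39 to 9.48 CPM in the GFP libraries, to 30.8, 4.84 and 135 CPM in WT3a_FLT3 replicates 1 to 3 and to 285, 153, 673 and 2660 CPM in KO3a_FLT3 replicates 1 to 4, where no stromal marker was at 0. In the knock-in model, stem and progenitor genes summed to 2040 to 3200 CPM in pre-leukemic marrow, to 1780 and 479 CPM in the HET3a_KIFLT3 libraries and to 390 CPM in the KO3a_KIFLT3 library, and 6 of 14 fell in the mean of both leukemia genotypes, beside 3.69% of all genes, Mecom being at 0 in all 3 leukemias. Dnmt3a itself was at 257 and 250 CPM in WT_GFP and 207 and 144 CPM in KO3a_GFP, which did not pass the test, and at 53.0 to 127 CPM in KO3a_FLT3 against 180 to 238 CPM in WT3a_FLT3. The count covers the whole gene, including exons outside the floxed part, so it does not check the deletion. In bulk samples, fewer cells of a type and less RNA per cell cannot be told apart.

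Of the 9 members tested, 1 passed the threshold in any of 8 comparisons (edgeR's quasi-likelihood test, Benjamini-Hochberg adjusted p below 0.05 over all genes). Grb10 was higher in KO3a_FLT3 than in KO3a_GFP, a comparison in which 19.6% of all genes were called. No member was called in WT3a_FLT3 against WT_GFP, where 2.24% of genes were, nor in KO3a_FLT3 against WT3a_FLT3 (0.49%), HET3a_KIFLT3 against WT3a_KIFLT3 (5%), KO3a_KIFLT3 against WT3a_KIFLT3 (3.01%) or the mean of both knock-in leukemia genotypes against WT3a_KIFLT3 (8.51%). KO3a_GFP against WT_GFP and the interaction between Dnmt3a genotype and FLT3-ITD gave 0% called over all genes. At an unadjusted p below 0.05 these last comparisons held 0 members each, against 0.477% and 5.4% of all genes. At an unadjusted p below 0.05 the 5 comparisons with 0 members called held 3, 1, 3, 1 and 2 members in that order, beside 17.7%, 20.3%, 25%, 20.9% and 27.3% of all genes. DESeq2's Wald test called more genes than edgeR in each of the 8 comparisons. It called 2 members in WT3a_FLT3 against WT_GFP (9.19% of all genes), 3 in KO3a_FLT3 against KO3a_GFP (32.3%) and 2 in HET3a_KIFLT3 against WT3a_KIFLT3 (15.4%). It called 1 member in KO3a_KIFLT3 against WT3a_KIFLT3 (11.7%), 2 in the mean of the knock-in leukemias (18.5%) and 0 in the other 3 comparisons. Under limma voom the count was 1, Grb10, in HET3a_KIFLT3 (4.58% of all genes) and in the mean of the knock-in leukemias (10.6%), and 0 in the other 6, KO3a_FLT3 against KO3a_GFP among them (20.4%). The median log2 difference of the 9 members was 4.25 in KO3a_FLT3 against KO3a_GFP, beside 0.19 over all genes tested. That median is the value of Dlk1, which did not pass (adjusted p = 0.139, edgeR) and was 1.82 without KO3a_FLT3 replicate 3. Meg3, which lies above it, passed the filter on low counts only through KO3a_FLT3 replicate 4. The median is therefore raised by a member admitted because it was high in this group, and it is given as a description. In the other comparisons the members' median ran from -0.53, in HET3a_KIFLT3 against WT3a_KIFLT3, to 0.41, in KO3a_GFP against WT_GFP.

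**Figure D1:**
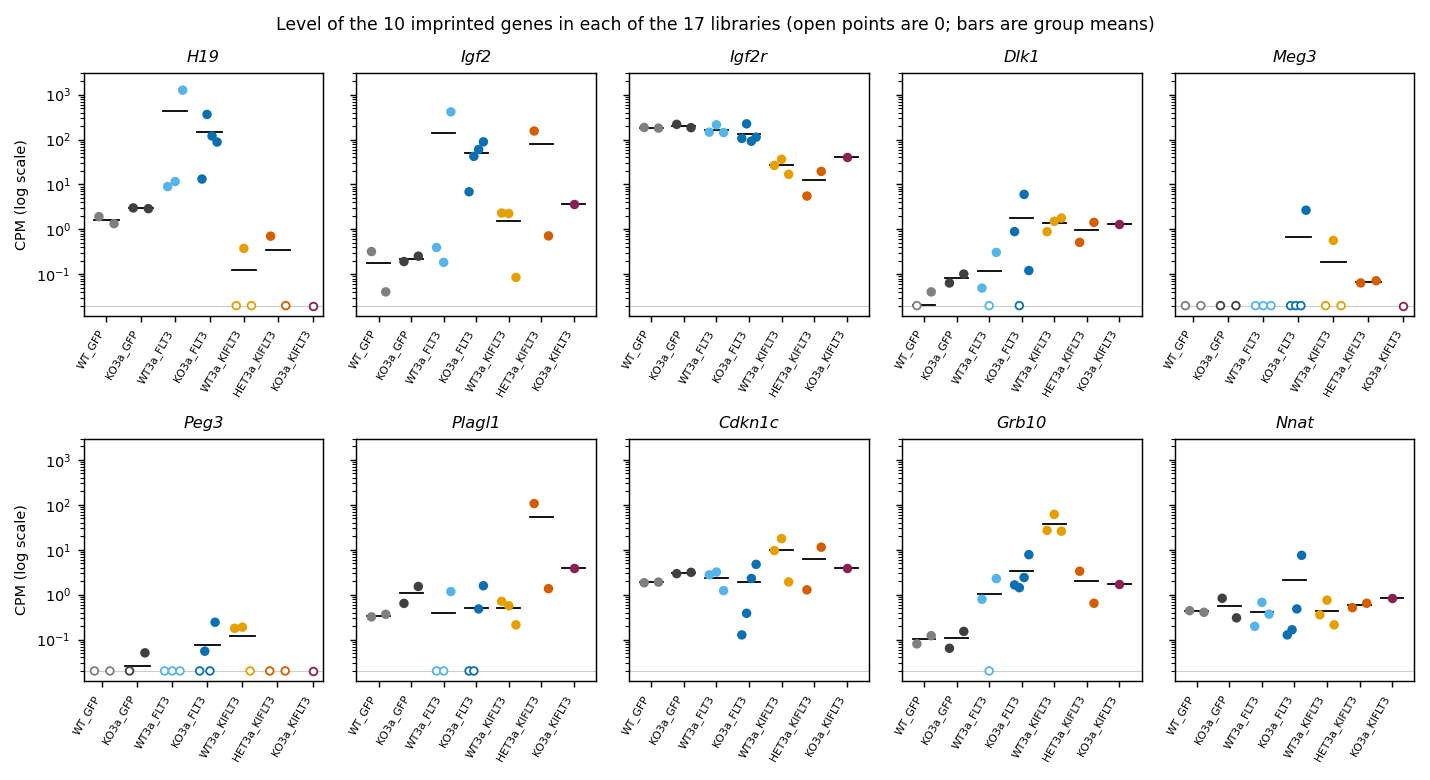
Level of each of the 10 imprinted genes in the 17 libraries, in CPM on a log scale, with 1 point per library, open points for libraries at 0 (drawn at the bottom line) and bars for group means. H19 and Igf2 reach 1260 and 414 CPM in WT3a_FLT3 replicate 3, Igf2r stays at or above 91.8 CPM in the retroviral libraries, and Grb10 lies between 25.9 and 61.5 CPM in pre-leukemic marrow.

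H19 and Igf2 are neighbours on chromosome 7 and share an imprinting control region and enhancers. H19 makes a maternally expressed noncoding RNA that restrains growth, and Igf2 encodes the paternally expressed growth factor IGF2. In the deposited gene models (build mm9), H19 lies at chr7:149761437-149764051 on the minus strand, drawn as 1 exon, and Igf2 at chr7:149836673-149846940 on the minus strand, 72.6 kb away. The first exon of H19 is the source of the microRNA miR-675, and both of its arms are shown because H19 had the highest group mean of the members, per kilobase of exon, in both groups of retroviral leukemia. The mature sequences are from RefSeq (GRCm38.p6, chr7:142577112-142577133 and chr7:142577078-142577099, minus strand), with the seed, bases 2 to 8, in capitals.
mmu-miR-675-5p: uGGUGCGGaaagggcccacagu
mmu-miR-675-3p: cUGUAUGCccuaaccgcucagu
No other of the 1679 mature miRNA names in that table has either seed. Polyadenylated libraries do not measure the mature miRNA, so no level is given for it.

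H19 was present in every retroviral library and nearly absent from the knock-in libraries. It stood at 1.92 and 1.34 CPM in WT_GFP and at 3.00 and 2.89 CPM in KO3a_GFP. In WT3a_FLT3 replicates 1 to 3 it was 8.96, 11.6 and 1260 CPM, and in KO3a_FLT3 replicates 1 to 4 it was 13.2, 363, 120 and 88.1 CPM. Every leukemia of the retroviral model therefore lay above every GFP library, and 1 library of WT3a_FLT3 exceeded the other leukemias, while the ranges of the FLT3-ITD groups overlapped. The knock-in libraries held 0, 0.377 and 0 CPM in WT3a_KIFLT3, 0.705 and 0 CPM in HET3a_KIFLT3 and 0 CPM in KO3a_KIFLT3, where a count of 0 allows up to 0.161 CPM. The log2 difference of WT3a_FLT3 from WT_GFP was 8.03 ± 2.37 (SE), with an unadjusted p of 0.00478 and an adjusted p of 0.0994 (edgeR). Without WT3a_FLT3 replicate 3 it was 2.68, and with thymus libraries alone it was 8.60, with an adjusted p of 0.0485. KO3a_FLT3 differed from KO3a_GFP by 5.63 ± 2.09 (SE) on the log2 scale (adjusted p = 0.0717, edgeR). Thymus libraries alone gave 5.14 for that comparison, with an adjusted p of 0.0433 (edgeR). In that fit KO3a_FLT3 consists of replicates 3 and 4, both of the second submission, while KO3a_GFP is of the first. FLT3-ITD and submission cannot be told apart there. The authors' deposited FPKM values exist for 9 libraries of the retroviral model. They gave 1180 FPKM for H19 in WT3a_FLT3 replicate 3 and 0.635 to 7.12 FPKM in the others in which the locus could be matched. The locus was not matched in KO3a_FLT3 replicate 2, the library with 363 CPM, so these values do not cover it.

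Igf2 was high in 5 of the 7 retroviral leukemias and in 1 library of the knock-in model. It was at 0.32 and 0.0405 CPM in WT_GFP, from 8 and 1 counts, and at 0.192 and 0.253 CPM in KO3a_GFP. WT3a_FLT3 replicates 1 to 3 held 0.394, 0.184 and 414 CPM, and KO3a_FLT3 replicates 1 to 4 held 6.87, 42.3, 60.3 and 89.0 CPM. All 4 KO3a_FLT3 libraries were above both KO3a_GFP libraries, whereas WT3a_FLT3 overlapped WT_GFP and was high in replicate 3 alone. In the knock-in model, HET3a_KIFLT3 replicate 1 stood at 155 CPM against 0.716 CPM in replicate 2, 3.65 CPM in KO3a_KIFLT3 and 2.31, 2.26 and 0.0851 CPM in WT3a_KIFLT3. The log2 differences were 9.51 ± 3.50 (SE) for WT3a_FLT3 against WT_GFP (adjusted p = 0.179, edgeR) and 7.74 ± 3.29 for KO3a_FLT3 against KO3a_GFP (adjusted p = 0.105). For HET3a_KIFLT3 against WT3a_KIFLT3 the log2 difference was 5.89 ± 2.57 (adjusted p = 0.177, edgeR). Single libraries set the first and the last of these: without WT3a_FLT3 replicate 3 the difference was 0.70, and without HET3a_KIFLT3 replicate 1 it was -0.86. In KO3a_FLT3 against KO3a_GFP, fitted on these groups alone, Igf2 passed with an adjusted p of 0.0357.

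H19 and Igf2 were high together in the retroviral leukemias but not in the knock-in leukemia. The ratio of H19 to Igf2 CPM was 3.04 in WT3a_FLT3 replicate 3 and 1.92, 8.58, 1.99 and 0.99 in KO3a_FLT3 replicates 1 to 4. In HET3a_KIFLT3 replicate 1 it was 0.00455. WT3a_FLT3 replicates 1 and 2 had ratios of 22.7 and 63.0, from H19 levels of 8.96 and 11.6 CPM with Igf2 below 1 CPM. Per kilobase of exon, the group means of H19 and Igf2 were 164 and 32.6 CPM per kilobase in WT3a_FLT3 and 55.9 and 11.7 CPM per kilobase in KO3a_FLT3. Igf2as, a transcript of the opposite strand within the Igf2 locus, was at 50.3 CPM in WT3a_FLT3 replicate 3, at 0.764, 4.78, 4.57 and 11 CPM in KO3a_FLT3 replicates 1 to 4 and at no more than 1.35 CPM elsewhere. The sources used here do not state whether counting used strand, so reads of Igf2as and Igf2 cannot be told apart where they overlap. Stromal cells can express Igf2 and H19 in mouse tissues. The 14 stromal genes summed to 285, 153, 673 and 2660 CPM in KO3a_FLT3 replicates 1 to 4. They summed to 30.8, 4.84 and 135 CPM in WT3a_FLT3 replicates 1 to 3. In KO3a_FLT3, Igf2 was highest in the library with the highest sum and H19 in the one with the lowest. In WT3a_FLT3, both were highest in the library with the highest sum. The part of stromal cells in the H19 and Igf2 levels was not tested.

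**Figure D2:**
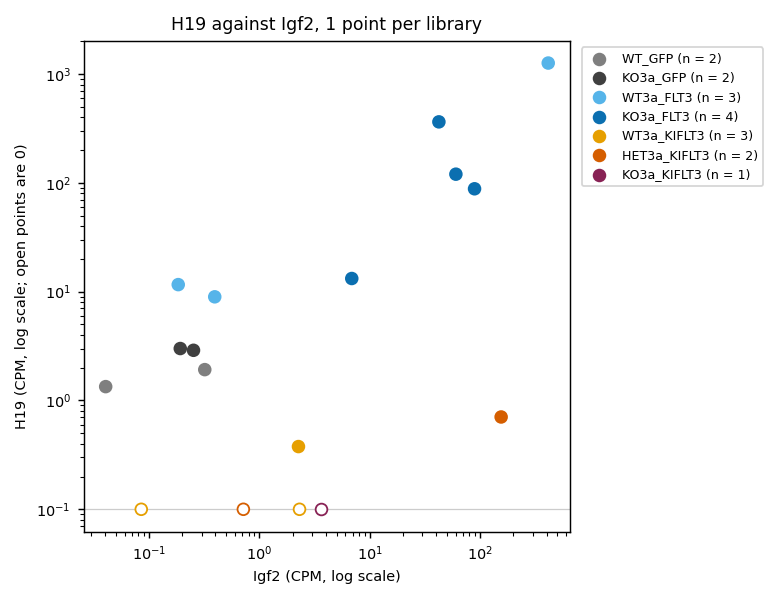
H19 against Igf2 in CPM, both axes on a log scale, with 1 point per library and open points on the bottom line for libraries with no H19 count. WT3a_FLT3 replicate 3 and the 4 KO3a_FLT3 libraries are high in both genes, and HET3a_KIFLT3 replicate 1 has 155 CPM of Igf2 with 0.705 CPM of H19.

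The libraries high in Igf2 did not divide its count alike among its transcript models. The deposited models start at 3 places, in the order NM_001122736, NM_010514 (2231 bases downstream) and NM_001122737 (3554 bases downstream of the first). The last of these held 76.6% of the 6739 estimated Igf2 counts in WT3a_FLT3 replicate 3 (95% exact binomial interval 75.6 to 77.6%). In HET3a_KIFLT3 replicate 1 the middle model held 72.0% of 2419 counts (70.1 to 73.8%). KO3a_FLT3 replicate 3 had 62.8% of 501 counts in the first model, KO3a_FLT3 replicate 2 had 31.2%, 40.2% and 28.6% of 770 counts in the 3 models in order, and replicate 4 had 52.3% and 47.7% of 733 counts in the middle and last. These intervals cover counting error only, and the division is the authors' estimate over models that share most exons, not a count of reads at each start. The windows from 250 bases before to 50 bases after the RefSeq starts of these 3 models are shown because the counts moved among the models. They are RefSeq promoters (GRCm38.p6, minus strand, chr7:142661222-142661521, chr7:142658755-142659054 and chr7:142657447-142657746), printed from 5′ to 3′ with the dinucleotide CG, the site of DNA methylation, in capitals.
Igf2 NM_001122736: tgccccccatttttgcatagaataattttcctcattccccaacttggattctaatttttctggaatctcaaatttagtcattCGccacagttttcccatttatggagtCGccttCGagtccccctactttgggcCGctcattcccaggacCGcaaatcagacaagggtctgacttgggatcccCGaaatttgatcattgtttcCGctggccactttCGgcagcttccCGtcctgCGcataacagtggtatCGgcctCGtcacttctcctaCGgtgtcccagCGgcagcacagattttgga
Igf2 NM_010514: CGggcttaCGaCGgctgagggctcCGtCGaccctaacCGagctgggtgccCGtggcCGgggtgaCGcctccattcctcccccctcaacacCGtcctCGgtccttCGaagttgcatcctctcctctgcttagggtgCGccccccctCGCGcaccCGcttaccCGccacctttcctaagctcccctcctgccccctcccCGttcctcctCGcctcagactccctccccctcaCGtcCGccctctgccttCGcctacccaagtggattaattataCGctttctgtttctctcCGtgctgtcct
Igf2 NM_001122737: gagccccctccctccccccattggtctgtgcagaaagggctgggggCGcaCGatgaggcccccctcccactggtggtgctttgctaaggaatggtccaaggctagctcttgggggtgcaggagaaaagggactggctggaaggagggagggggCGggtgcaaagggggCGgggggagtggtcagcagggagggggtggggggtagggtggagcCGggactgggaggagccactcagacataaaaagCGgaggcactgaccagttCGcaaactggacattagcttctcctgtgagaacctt
They hold 14, 24 and 7 CG, and 36.3%, 20.0% and 52.1% of the 32851 promoters in the table hold at least as many. Each window was paired with its model because its last 30 bases occur in the GENCODE transcript that is cross-referenced to that RefSeq entry. Neighbouring Igf2 starts are 2467 and 1308 bases apart among the RefSeq promoters and 2231 and 1323 bases apart among the deposited models. The windows therefore need not all lie at the deposited starts.

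Igf2r encodes the receptor that carries IGF2 to the lysosome for breakdown and is maternally expressed in mouse tissues. It lies at chr17:12875272-12962572 (mm9, minus strand). Among the retroviral libraries it stayed within 91.8 to 224 CPM: 186 and 180 CPM in WT_GFP, 218 and 184 CPM in KO3a_GFP, 146, 213 and 143 CPM in WT3a_FLT3 and 106, 224, 91.8 and 113 CPM in KO3a_FLT3. The knock-in libraries were lower, at 26.5, 36.4 and 16.8 CPM in WT3a_KIFLT3, 5.52 and 19.5 CPM in HET3a_KIFLT3 and 39.9 CPM in KO3a_KIFLT3. Retroviral and knock-in libraries did not overlap, but they come from sorted thymocyte-like cells and unsorted marrow, so model and cell type cannot be told apart. All knock-in libraries are of the second submission. So are KO3a_FLT3 replicates 3 and 4 (91.8 and 113 CPM), while the other retroviral libraries are of the first. No comparison passed for Igf2r, with adjusted p-values from 0.209 to 1 (edgeR). Airn, the paternally expressed antisense RNA that silences the paternal copy of Igf2r in mouse embryos, was at 6.57 to 20.1 CPM in the retroviral libraries and at 0 to 1.51 CPM in the knock-in libraries, in the same direction as Igf2r itself. Since the strand setting of the counting is not stated, reads of Airn and Igf2r cannot be told apart where they overlap.

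The wider IGF and insulin receptor axis was mostly not called. In KO3a_FLT3 against KO3a_GFP, 2 of its 19 tested genes rose and 1 fell, beside 9.8% and 9.85% of all genes. Igfbp7, a secreted IGF-binding protein, was higher by 7.10 ± 2.03 (SE) on the log2 scale (adjusted p = 0.029, edgeR), at 5.22, 4.95, 13.7 and 80.5 CPM in KO3a_FLT3 replicates 1 to 4 against 0.383 and 0 CPM. Igfbp3, the main IGF carrier of the blood, had 303 counts in KO3a_FLT3 and 0 in KO3a_GFP, at least 83.8-fold higher when the KO3a_GFP total is set to 3 counts (adjusted p = 0.0443, edgeR). Of its 4 libraries, replicate 4 held 33.3 CPM and the others 0.382 to 2.04 CPM, and without replicate 4 it was no longer called. Insr, the insulin receptor, fell by 1.79 ± 0.33 (adjusted p = 0.0055), from 176 and 112 CPM to 34.6 to 52.8 CPM. Each of these 3 calls was lost without KO3a_GFP replicate 1, and those of the binding proteins also without KO3a_GFP replicate 2 and without the second submission. Grb14, an adaptor of the same family as Grb10, was the 1 gene of the axis that rose in KO3a_KIFLT3, beside 2.11% of all genes (12.2 CPM against 0.178 to 0.377 CPM in WT3a_KIFLT3; log2 difference 5.57 ± 1.22, adjusted p = 0.0336, edgeR). That call was lost without any 1 of the 3 WT3a_KIFLT3 libraries. Igf1r, the receptor through which IGF2 signals, was at 45.9 to 57.2 CPM in the GFP libraries, 62.3 to 189 CPM in the retroviral leukemias and 54.3 to 345 CPM in the knock-in libraries, and it was not called.

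Grb10 encodes an adaptor that binds the insulin and IGF1 receptors and dampens their signal, and outside the brain it is read mainly from the maternal copy in the mouse. It lies at chr11:11830502-11937423 (mm9, minus strand). Its highest levels were in pre-leukemic knock-in marrow, with 27.0, 61.5 and 25.9 CPM. In the leukemias of that model it was at 3.33 and 0.644 CPM (HET3a_KIFLT3) and 1.72 CPM (KO3a_KIFLT3), so that no leukemic library reached the pre-leukemic range. The retroviral model ran from lower levels: 0.08 and 0.122 CPM in WT_GFP (2 and 3 counts), 0.0639 and 0.152 CPM in KO3a_GFP (1 and 3 counts), 0.788, 0 and 2.27 CPM in WT3a_FLT3 and 1.65, 1.43, 2.41 and 7.77 CPM in KO3a_FLT3. All 4 KO3a_FLT3 libraries lay above both KO3a_GFP libraries, while WT3a_FLT3 overlapped WT_GFP because replicate 2 had no count.

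KO3a_FLT3 differed from KO3a_GFP by 4.80 ± 1.51 (SE) on the log2 scale, with an unadjusted p of 0.00718 and an adjusted p of 0.0417 (edgeR). The groups hold 123 and 4 counts in all, a ratio of pooled CPM of 25.5 with a 95% exact counting interval of 9.71 to 95.1. The call was lost without either KO3a_GFP library and without KO3a_FLT3 replicate 1, 3 or 4 (adjusted p from 0.0503 to 0.289), with limma voom (0.0711), with the contrasted groups alone (0.0672) and without the second submission (0.0936). The library with the most Grb10 in KO3a_FLT3, replicate 4, was also the one with the most stromal (2660 CPM over 14 genes) and macrophage RNA (4410 CPM), whose part was not tested, and without it the difference was 3.95. Thymus libraries alone gave 5.42 with an adjusted p of 0.00883 (edgeR). In that fit all KO3a_FLT3 libraries are of the second submission and all KO3a_GFP libraries of the first. FLT3-ITD and submission therefore cannot be told apart there. In both the main and the thymus fit of this comparison, FLT3-ITD and donor enrichment cannot be told apart either. With all libraries, WT3a_FLT3 against WT_GFP gave 3.24 ± 1.42 (adjusted p = 0.257, edgeR), and the interaction had an adjusted p of 0.902. In the knock-in model the differences ran the other way: Grb10 was -4.25 ± 1.38 in HET3a_KIFLT3 (adjusted p = 0.0842), -4.47 ± 1.91 in KO3a_KIFLT3 (adjusted p = 0.205) and -4.36 ± 1.29 for their mean (adjusted p = 0.0545, edgeR). With limma voom the last had an adjusted p of 0.0161, and without HET3a_KIFLT3 replicate 1 it was 0.03. The opposite directions in the knock-in and the retroviral model were not tested against each other, since thymocytes and unsorted marrow are different controls. Endothelial markers summed to 358 to 621 CPM and megakaryocyte markers to 372 to 615 CPM in WT3a_KIFLT3. In the knock-in leukemias they summed to 78.9 to 254 CPM and 146 to 229 CPM. Within the lists, Cdh5 went the other way (0.189 to 0.533 CPM against 1.36 to 9.22 CPM). So did Ppbp in KO3a_KIFLT3 (39.9 CPM against 0.754 to 1.02 CPM in WT3a_KIFLT3). No gene of either list was called in the mean of both leukemia genotypes, beside 8.51% of all genes. The part of either list in the Grb10 levels was not tested.

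**Figure D3:**
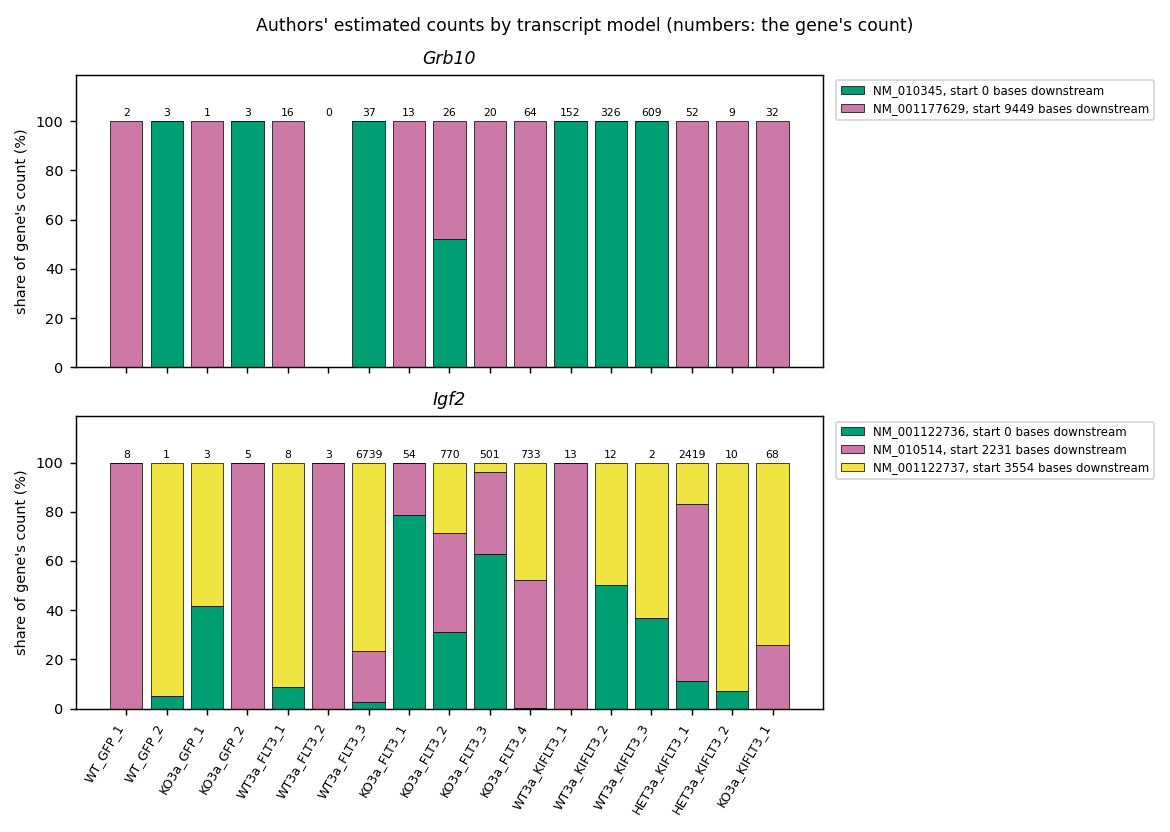
Share of the authors' estimated count of Grb10 (top) and Igf2 (bottom) given to each transcript model, in percent per library, with the gene's count above each bar. In the 3 WT3a_KIFLT3 libraries at least 99.9% of the Grb10 count is in NM_010345 and in the knock-in leukemias 0% is, while the Igf2 count divides differently in each library high in it.

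The Grb10 count also lay in another transcript model before and after leukemia. Its 2 deposited models start 9449 bases apart, NM_010345 upstream and NM_001177629 downstream. In WT3a_KIFLT3 the upstream model held 99.9%, 100% and 100% of 152, 326 and 609 counts. In HET3a_KIFLT3 replicate 1 it held 0% of 52 counts (95% exact binomial interval 0 to 6.85%) and in KO3a_KIFLT3 0% of 32 counts (0 to 10.9%). HET3a_KIFLT3 replicate 2 had its 9 counts in the downstream model as well. The retroviral leukemias were split within groups. WT3a_FLT3 replicate 3 had all of its 37 counts upstream and WT3a_FLT3 replicate 1 all of its 16 counts downstream. KO3a_FLT3 replicates 1, 3 and 4 had all of their 13, 20 and 64 counts downstream, and KO3a_FLT3 replicate 2 had 52.2% of 26 counts upstream. In 15 of the 16 libraries with a count, at least 99% was placed in 1 model, also where the gene had 1 to 3 counts. The estimate gave nearly all-or-none divisions at any depth, and the reads at each first exon were not analysed here. The windows around both starts (RefSeq, GRCm38.p6, minus strand, chr11:12037371-12037670 upstream and chr11:12027922-12028221 downstream) are shown because the count moved between them, with CG in capitals. Their starts are 9449 bases apart in that build too.
Grb10 NM_010345: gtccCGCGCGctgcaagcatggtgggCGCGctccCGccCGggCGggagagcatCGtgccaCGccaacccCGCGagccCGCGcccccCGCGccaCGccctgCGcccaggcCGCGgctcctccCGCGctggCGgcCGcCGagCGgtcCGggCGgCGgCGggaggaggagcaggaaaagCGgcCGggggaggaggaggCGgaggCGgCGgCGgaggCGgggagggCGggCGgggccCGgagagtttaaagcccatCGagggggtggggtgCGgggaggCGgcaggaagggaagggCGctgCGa
Grb10 NM_001177629: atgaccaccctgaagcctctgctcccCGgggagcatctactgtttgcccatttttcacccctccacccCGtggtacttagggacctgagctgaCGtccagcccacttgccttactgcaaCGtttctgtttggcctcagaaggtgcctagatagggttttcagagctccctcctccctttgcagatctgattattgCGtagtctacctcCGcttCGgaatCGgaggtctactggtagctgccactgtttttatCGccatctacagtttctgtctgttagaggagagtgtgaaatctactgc
The upstream window has 45 CG, as many or more than which are found in 1.93% of all promoters in the table, and the downstream window has 9 (45.8%). The motif TGCCGC, searched on both strands, is bound when methylated by ZFP57, a protein that keeps imprints in the mouse embryo. It occurs once in the upstream window and not in the downstream one, and 11.6% of all promoters of this length hold it. The Igf2 window NM_001122736 printed above holds it once too, as do the windows of Nnat and of the upstream Meg3 start, which are not printed.

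Ddc and Cobl, neighbours of Grb10 in its imprinted domain, rose in KO3a_FLT3 against KO3a_GFP and were not called in WT3a_FLT3 against WT_GFP. The difference between these comparisons did not pass either (interaction, adjusted p = 0.877 and 0.819, edgeR). Ddc, which encodes the enzyme that makes dopamine and serotonin, was at 2.56 to 4.00 CPM in the GFP libraries, at 1.43, 1.53 and 53.3 CPM in WT3a_FLT3 replicates 1 to 3 and at 113, 49.0, 58.3 and 25.4 CPM in KO3a_FLT3 replicates 1 to 4. Its rise was 4.22 ± 1.36 (SE) on the log2 scale in KO3a_FLT3 against KO3a_GFP (adjusted p = 0.0452, edgeR). Cobl, an actin nucleator gene of the same domain, had 35 counts in KO3a_FLT3 and 0 in KO3a_GFP, at least 9.68-fold higher by the same bound (adjusted p = 0.0449). Both calls were lost without either KO3a_GFP library and without KO3a_FLT3 replicate 1 or 3, and that of Cobl also without replicate 4 and without the second submission. In the knock-in libraries Ddc and Cobl were both below 1 CPM.

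Plagl1 (also Zac1) encodes a paternally expressed zinc finger transcription factor that restrains proliferation and binds regulatory DNA of other imprinted genes, including the shared enhancers of Igf2 and H19, in the mouse. It lies at chr10:12810594-12851501 (mm9, plus strand). It was low in 16 of the 17 libraries and at 107 CPM, from 1673 counts, in HET3a_KIFLT3 replicate 1, the knock-in library that was also high in Igf2. HET3a_KIFLT3 replicate 2 held 1.36 CPM, KO3a_KIFLT3 3.86 CPM and the WT3a_KIFLT3 libraries 0.711, 0.566 and 0.213 CPM. All 3 knock-in leukemias were above all 3 pre-leukemic libraries. Retroviral libraries were at 0.32 and 0.365 CPM (WT_GFP), 0.639 and 1.52 CPM (KO3a_GFP), 0, 0 and 1.17 CPM (WT3a_FLT3) and 0, 0, 0.481 and 1.58 CPM (KO3a_FLT3). Each FLT3-ITD group overlapped its GFP group, and the KO3a_GFP libraries lay above the WT_GFP libraries (adjusted p = 1, edgeR). The log2 difference of HET3a_KIFLT3 from WT3a_KIFLT3 was 6.88 ± 2.09 (SE; adjusted p = 0.0707, edgeR), and without HET3a_KIFLT3 replicate 1 it was 1.52 (adjusted p = 0.721). The mean of both leukemia genotypes differed by 4.97 ± 1.93 (adjusted p = 0.12). In HET3a_KIFLT3 replicate 1, stem and progenitor genes summed to 1780 CPM and Cd34 was at 747 CPM, against 479 and 110 CPM in replicate 2. Kit, of the same list, went the other way, at 31 CPM against 158 CPM, and Mecom was at 0 in both. The part of these genes in the Plagl1 level was not tested. Its promoter window (RefSeq, GRCm38.p6, chr10:13090582-13090881, plus strand) is shown because a single library carried nearly all of this gene's counts, with CG in capitals.
Plagl1 NM_009538: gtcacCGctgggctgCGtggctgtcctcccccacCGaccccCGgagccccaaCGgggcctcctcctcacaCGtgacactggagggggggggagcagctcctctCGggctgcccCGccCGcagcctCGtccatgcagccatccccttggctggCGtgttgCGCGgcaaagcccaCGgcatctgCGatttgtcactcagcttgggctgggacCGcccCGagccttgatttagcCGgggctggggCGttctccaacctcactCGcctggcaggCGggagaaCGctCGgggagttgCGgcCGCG
It holds 26 CG, and 16.9% of all promoters in the table hold at least as many. TGCCGC occurs in it once on either strand.

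Cdkn1c encodes p57Kip2, a maternally expressed inhibitor of cyclin-dependent kinases that keeps mouse blood stem cells out of the cell cycle. It lies at chr7:150644244-150646955 (mm9, minus strand), 797.3 kb from Igf2. Its levels were 1.84 and 1.90 CPM in WT_GFP, 2.94 and 3.14 CPM in KO3a_GFP, 2.76, 3.19 and 1.23 CPM in WT3a_FLT3 and 0.127, 0.385, 2.29 and 4.73 CPM in KO3a_FLT3. Within KO3a_FLT3, the marrow libraries (replicates 1 and 2) were below the thymus libraries (replicates 3 and 4), and tissue and submission cannot be told apart there. Knock-in marrow held 9.60, 17.7 and 1.92 CPM before leukemia and 1.28, 11.4 and 3.97 CPM in the leukemias, with overlapping groups. No comparison passed for Cdkn1c (adjusted p from 0.634 to 1, edgeR).

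Other genes of the Cdkn1c domain were called in the main fit, Kcnq1ot1 and Phlda2 in the knock-in model and Kcnq1 in the retroviral model. Kcnq1ot1, the paternally expressed long noncoding RNA that silences Cdkn1c on the paternal copy, was at 142, 313 and 66.1 CPM in WT3a_KIFLT3 and at 21.9, 45.4 and 26.8 CPM in HET3a_KIFLT3 replicates 1 and 2 and KO3a_KIFLT3. The mean of both leukemia genotypes fell by 2.53 ± 0.70 (SE) on the log2 scale (adjusted p = 0.0429, edgeR). Phlda2, a maternally expressed growth restrainer of the placenta, had 55 counts in pre-leukemic marrow and 2 in the 3 leukemias, a ratio of 38.6 (95% exact counting interval 10.2 to 326; adjusted p = 0.0467). Kcnq1, the potassium channel gene within which Kcnq1ot1 lies, had 245 counts in KO3a_FLT3, most of them in replicate 4 (20.5 CPM against 0.361 to 3.30 CPM), and 1 in KO3a_GFP (ratio 203, interval 36.1 to 8060; adjusted p = 0.0394). Each of these 3 calls was lost in some of the fits that left out 1 library: in 4 of 5 for Kcnq1ot1, in 5 of 5 for Phlda2 and in 3 of 6 for Kcnq1, where the libraries were KO3a_GFP replicates 1 and 2 and KO3a_FLT3 replicate 4. For Kcnq1ot1 the call held only without WT3a_KIFLT3 replicate 3. DESeq2's Wald test did not call Phlda2, and neither did the fit without a filter on low counts. With the replicate number as a block, and with the contrasted groups alone, none of the 3 genes was called. Stem and progenitor markers fell in the mean of the knock-in leukemias, as given above. Their part in the Kcnq1ot1 and Phlda2 levels was not tested.

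Dlk1 and Meg3 are the first genes of an imprinted cluster on chromosome 12, at chr12:110691033-110701546 and chr12:110779206-110809939 (mm9, plus strand), 77.7 kb apart. Dlk1 encodes a paternally expressed membrane protein related to Notch ligands, and Meg3 a maternally expressed noncoding RNA that protects mouse fetal liver stem cells. Dlk1 was at 0 and 0.0405 CPM in WT_GFP, 0.0639 and 0.101 CPM in KO3a_GFP and 0.0492, 0 and 0.307 CPM in WT3a_FLT3, at most 5 counts in any library. KO3a_FLT3 replicates 1 to 4 held 0.891, 0, 6.01 and 0.121 CPM, so that replicate 3 stood alone. The knock-in libraries held 0.889, 1.51 and 1.79 CPM (WT3a_KIFLT3), 0.513 and 1.43 CPM (HET3a_KIFLT3) and 1.29 CPM (KO3a_KIFLT3), a narrow range without separation of the groups. KO3a_FLT3 against WT3a_FLT3 gave a log2 difference of 3.81 ± 1.64 (SE; unadjusted p = 0.0369, adjusted p = 0.221, edgeR), and 1.37 without KO3a_FLT3 replicate 3. With thymus libraries alone Dlk1 was among the 3 members called in KO3a_FLT3 against KO3a_GFP, beside 27.1% of all genes. In that fit KO3a_FLT3 consists of replicates 3 and 4, both of the second submission, while KO3a_GFP is of the first.

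Meg3 had no count in 10 of the 11 retroviral libraries. KO3a_FLT3 replicate 4 held 22 counts, or 2.67 CPM, and the knock-in libraries held 0, 0.566 and 0 CPM (WT3a_KIFLT3), 0.0641 and 0.0716 CPM (HET3a_KIFLT3) and 0 CPM (KO3a_KIFLT3). Rian, the next noncoding RNA of the cluster, was also highest in KO3a_FLT3 replicate 4, at 0.85 CPM. That library is the one with the most stromal RNA: Col1a1, Col1a2 and Col3a1 were at 513, 435 and 668 CPM there, against at most 57.0, 66.9 and 59.3 CPM in the other KO3a_FLT3 libraries. Other cell types were high in it as well: monocyte and macrophage markers summed to 4410 CPM against 144 to 285 CPM in the other KO3a_FLT3 libraries, endothelial markers to 300 CPM against 76.6 to 114 CPM and megakaryocyte markers to 141 CPM against 17.3 to 50.6 CPM. The part of any of these in the Meg3, Nnat and Grb10 counts of that library was not tested.

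Nnat encodes neuronatin, a paternally expressed small membrane protein best known from brain and endocrine cells, and lies at chr2:157385846-157388255 (mm9, plus strand). It was below 1 CPM in 16 of 17 libraries (0.127 to 0.858 CPM) and at 7.52 CPM in KO3a_FLT3 replicate 4. The 62 Nnat counts of that library were all in the model NM_010923, whereas the other 10 retroviral libraries had at least 99% of theirs in NM_180960. In the knock-in model NM_010923 held 100% in WT3a_KIFLT3 replicate 1 and 95.2% in KO3a_KIFLT3, and the other libraries had theirs in NM_180960. In 16 of 17 libraries at least 99% was placed in 1 model, a nearly all-or-none division as for Grb10. No comparison passed for Nnat (adjusted p from 0.31 to 1, edgeR). Blcap, the gene within whose intron Nnat lies, was at 37.5 CPM in the same library and at 11.1 to 40.6 CPM over all 17. Peg3, a paternally expressed zinc finger gene at chr7:6658671-6683130 (mm9, minus strand), had 0 to 2 counts in every library, too few for the test.

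Outside the 10 members, 56 of 72 other imprinted genes in the table were tested. In KO3a_FLT3 against KO3a_GFP 6 rose and 1 fell, beside 9.8% and 9.85% of all genes. In WT3a_FLT3 against WT_GFP 1 rose, beside 1.35% of all genes, and in the mean of the knock-in leukemias 4 fell, beside 3.69%. Rasgrf1, a paternally expressed Ras activator, was the gene called in both FLT3-ITD comparisons: 23.9, 21.5 and 6.08 CPM in WT3a_FLT3 and 10.1, 17.9, 1.44 and 16.4 CPM in KO3a_FLT3, against 0.08 and 0.081 CPM in WT_GFP and 0 CPM in both KO3a_GFP libraries. It was higher by 7.60 ± 1.65 (SE) on the log2 scale in WT3a_FLT3 (adjusted p = 0.0472, edgeR) and at least 152-fold higher, with 3 counts over the KO3a_GFP group as floor, in KO3a_FLT3 (adjusted p = 0.0104). Without either GFP library of the contrast both calls were lost, and that in WT3a_FLT3 also without WT3a_FLT3 replicate 1 or 2. Dcn, which encodes the matrix proteoglycan decorin and is itself a stromal gene, was at 7.38, 3.08, 38.4 and 368 CPM in KO3a_FLT3 against 0.128 and 0.101 CPM in KO3a_GFP (adjusted p = 0.0312), a call lost without either KO3a_GFP library. Atp10a, a lipid flippase gene, fell by 3.55 ± 0.59 (adjusted p = 0.00326), from 270 and 196 CPM to between 6.43 and 39.1 CPM, and was not called without KO3a_GFP replicate 1. Among the knock-in libraries, Slc22a3, an organic cation transporter gene in the Igf2r domain, was at 106, 150 and 245 CPM before leukemia and at 8.08, 4.94 and 6.06 CPM in the leukemias, a fall of 4.73 ± 1.31 (adjusted p = 0.0429). Peg13, a noncoding RNA, went from 116, 130 and 94.4 CPM to 73.0, 19.3 and 32.0 CPM (fell by 1.56 ± 0.37, adjusted p = 0.0252). Their calls were lost in 4 of 5 and 3 of 5 fits that left out 1 library. All 3 WT3a_KIFLT3 libraries were among those whose absence ended them.

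**Figure D4:**
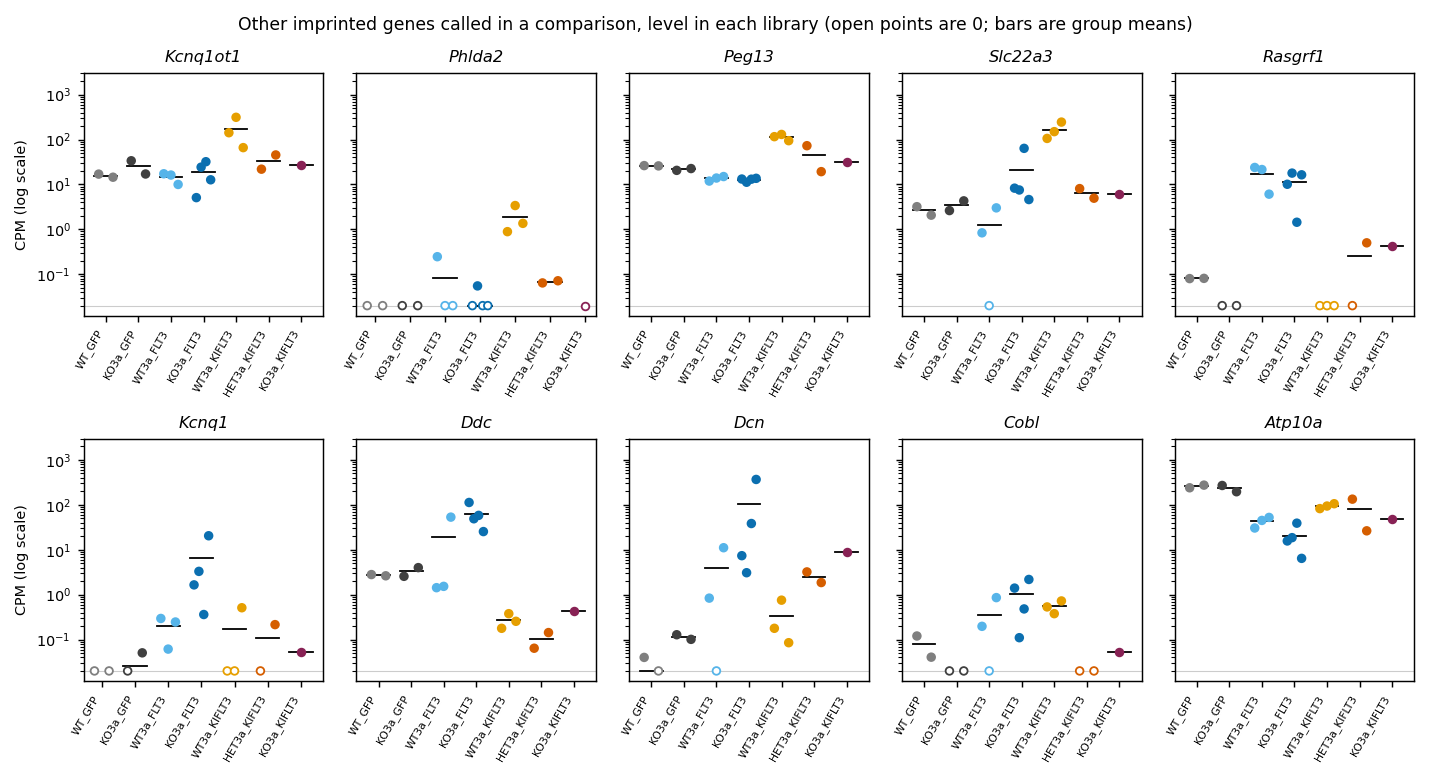
Level of 10 other imprinted genes that were called in a comparison, in CPM on a log scale, with 1 point per library, open points for 0 and bars for group means. Kcnq1ot1, Phlda2, Peg13 and Slc22a3 are lower in the 3 knock-in leukemias than in the 3 pre-leukemic libraries, and Rasgrf1 is above 1 CPM in all 7 retroviral leukemias.

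Among 21 tested genes that write, read or erase DNA methylation at imprints, 1 rose in WT3a_FLT3 against WT_GFP, beside 1.35% of all genes, and 1 rose and 5 fell in KO3a_FLT3 against KO3a_GFP, beside 9.8% and 9.85%. Dnmt3b, the other de novo methyltransferase, rose in WT3a_FLT3 (98.3, 109 and 67.8 CPM against 9.32 and 8.63 CPM in WT_GFP; log2 difference 3.35 ± 0.48, adjusted p = 0.00335, edgeR). It also rose in KO3a_FLT3 (91.5, 118, 67.0 and 52.1 CPM against 7.99 and 12.4 CPM; 3.01 ± 0.47, adjusted p = 0.0023). In the knock-in model it fell, from 143, 133 and 142 CPM before leukemia to 110, 36.8 and 31.4 CPM in the leukemias (adjusted p = 0.0348 for the mean of both genotypes). These Dnmt3b calls were lost without either WT_GFP library, without KO3a_GFP replicate 1, and without any WT3a_KIFLT3 library or HET3a_KIFLT3 replicate 2, respectively. Dnmt3a fell by 1.35 ± 0.25 in KO3a_FLT3 against WT3a_FLT3 (adjusted p = 0.0353) and by 1.72 ± 0.30 in the mean of the knock-in leukemias (adjusted p = 0.00766). Tet1, which oxidises methylated cytosine, fell in both as well, by 1.41 ± 0.25 (adjusted p = 0.0293) and 2.62 ± 0.31 (adjusted p = 0.00196, edgeR). In KO3a_FLT3 against KO3a_GFP, Ctcf, whose protein binds the unmethylated control region between H19 and Igf2, fell by 0.91 ± 0.18 (adjusted p = 0.00714). In the same comparison Setdb1, Arid4a, Arid4b and Dnmt3a fell too. All 5 of these calls were lost without KO3a_GFP replicate 1, those of Setdb1 and Arid4a also without replicate 2, and that of Arid4a without KO3a_FLT3 replicate 1, 3 or 4 as well. The retroviral Dnmt3a and Tet1 calls were lost in 4 of 7 and 3 of 7 fits that left out 1 library, with log2 differences of -1.68 to -1.20 and -1.60 to -1.09. Both needed WT3a_FLT3 replicates 1 and 2 and KO3a_FLT3 replicate 1, and Dnmt3a also KO3a_FLT3 replicate 3, whereas the knock-in calls of both genes held in 5 of 5 such fits.

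Over the 17 libraries, the genes whose log2 CPM followed each member most closely were computed as a description, with libraries of the same group not independent of each other. For H19 these were Jazf1 (r = 0.946) and Gpr83 (0.935), and for Igf2 Tshz2 (0.927) and Ptprn2 (0.914). Grb10 was followed by Emcn (0.957), an endothelial and stem cell surface gene at 16.9, 17.3 and 3.45 CPM in WT3a_KIFLT3 and 0 CPM in the GFP libraries, and by Ptrf (0.956). Igf2r was followed by Tulp4 (0.976) and Ppm1h (0.965), which separate the retroviral from the knock-in libraries. The closest genes were Cpne2 (0.903) and Shisa2 (0.885) for Dlk1, Pttg1ip (0.93) and Ildr1 (0.917) for Plagl1 and Gm3230 (0.867) and Tmem8b (0.848) for Cdkn1c. Meg3 was followed by Ntrk2 (0.957) and Aspg (0.943), and Nnat by Myrf (0.894) and Slc39a12 (0.881). These pairs rest mainly on KO3a_FLT3 replicate 4, where Ntrk2 was at 3.40 CPM and Myrf at 8.74 CPM against at most 0.754 and 0.566 CPM elsewhere.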

How the data were processed

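Polyadenylated RNA was sequenced after Qiagen AllPrep extraction and TruSeq library preparation, per the labels' protocols. The submitters' processing notes name build mm9, Cuffdiff 2.1.1 or 2.2.1, Cufflinks 2.1.1 and TopHat2 2.0.10. The sources used here state neither the program behind the counts nor its strand setting. The authors deposited estimated counts per gene and per transcript, of which 98.12 to 98.54% were whole within 0.001, and FPKM values for 9 libraries. The deposited FPKM values served as description alone. Gene positions are those of the deposited models. Estimated counts were rounded, and a total of 15508 of 23458 genes (66.1%) passed edgeR's filterByExpr. TMM factors were 0.943 to 1.08. The main test was edgeR's quasi-likelihood test (4.0.16, R 4.3.3), two-sided, over 17 libraries with 7 group means and Benjamini-Hochberg adjustment over all tested genes at 0.05. DESeq2 1.42.0 and limma 3.58.1 were alternatives, with other filters, single tissues or submissions and left-out libraries. Exact intervals are at 95% and, like the floor of 3 counts, cover counting error only, since reads without molecular identifiers are not independent molecules.

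The 10 genes and all lists were chosen with earlier results of these data known. Members have their log2 difference printed where the unadjusted p was below 0.05. From the lists of other imprinted genes, imprint maintenance factors and the IGF axis, up to 6 called genes per comparison were named by size, besides neighbours of members. For each member the 2 genes with the highest Pearson correlation of log2 CPM (prior count 2) were named. RefSeq promoters (GRCm38.p6) were found for 8 members and were not converted to mm9.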

Additional observations from a re-analysis of the deposited data

Results flagged for a closer look

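In a group of 4 libraries, a value was taken up here where its gap to the nearest of the others was a large part of the group's range. KO3a_FLT3 is the one group of that size. Of 10 members 5 had such a library. The rule gives about 1 in 20 groups by chance, but 17.5% of all 15362 tested genes with a range in this group had one, and 10.9% had it as a high replicate 4. Igf2r was highest in replicate 2, at 224 CPM, with a gap of 0.84 of the range. Dlk1 was highest in replicate 3, at 6.01 CPM (0.852 of the range). Replicate 4 stood apart for Meg3, at 2.67 CPM (1.0 of the range), for Grb10, at 7.77 CPM (0.845), and for Nnat, at 7.52 CPM (0.952). Meg3 had no count in the other KO3a_FLT3 libraries and passed the filter on low counts only through replicate 4. Its flag therefore follows from its passing the filter. Replicate 4 also had the highest sum of 14 stromal genes, 2660 CPM against 153 to 673 CPM in the other KO3a_FLT3 libraries, and of monocyte and macrophage markers, 4410 CPM against 144 to 285 CPM. The part of these differences in the member levels was not tested. The lowest adjusted p of a member for the interaction between Dnmt3a genotype and FLT3-ITD was 0.86 (edgeR).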

How the results depend on the processing

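Among alternative counts of called members, 92 stayed on the same side, 8 were lower and 12 higher. The 92 include all settings of KO3a_GFP against WT_GFP and of the interaction. At most 0.516% of all genes were called there, so a count of 0 could hardly change. Of 171 alternative log2 differences of named members, 1 changed sign. That 1 was Igf2 in HET3a_KIFLT3 against WT3a_KIFLT3, at -0.86 without HET3a_KIFLT3 replicate 1 and up to 6.91 without replicate 2. The share of all genes called under each setting stands in parentheses. In WT3a_FLT3 against WT_GFP the count of 0 became 2 with DESeq2's Wald test (9.19%) and 1 with thymus libraries alone (2.44%). In KO3a_FLT3 against KO3a_GFP the count of 1 became 3 with DESeq2's Wald test (32.3%), 3 with thymus libraries alone (27.1%), 0 with limma voom (20.4%) and 0 with the first submission alone (20%), and ran from 0 to 1 when 1 library was left out. With the contrasted groups alone that count stayed 1 (3.38%), but the gene was Igf2, not Grb10. In HET3a_KIFLT3 the count of 0 became 2 with DESeq2 (15.4%) and 1 with limma voom (4.58%). In KO3a_KIFLT3 it became 1 with DESeq2 (11.7%) and, with the contrasted groups alone, 2 of 7 members tested (27.1%). For the mean of the knock-in leukemias it became 2 with DESeq2 (18.5%), 1 with limma voom (10.6%) and 1 with genes of at least 1 CPM in at least 2 libraries (10.1%), and ran from 0 to 1 when 1 library was left out. The causes were not tested. KO3a_KIFLT3 has 1 library, which cannot be left out.

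With the replicate number as a block, the count in KO3a_FLT3 against KO3a_GFP was 0 (15.7% of all genes called), and Grb10 gave a log2 difference of 3.59 with an adjusted p of 0.11 (edgeR). Same-numbered libraries share only a number: their deviations from the group means correlated at -0.287 to 0.369 over 33 pairs, against -0.43 to 0.358 over 72 other pairs. The share of all genes called in that comparison was 0.949% without KO3a_GFP replicate 1 and 5.92% without replicate 2, against 19.6%. Depth limits the members at 0, where 3 counts stand for 0.12 to 0.566 CPM.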
